A study of Mus musculus with 15 samples.

Results

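The genes described are the 10 genes Gzma, Gzmb, Gzmk, Prf1, Nkg7, Ctsw, Fasl, Klrg1, Klrd1 and Klrk1, chosen by their mouse symbols as genes of the cytotoxic program, and all 10 were found among the 55421 genes counted. They were read in donor CD4+ T cells sorted from the spleen or the mesenteric lymph nodes (mLN) of Rag2-/- recipients 6 weeks after the transfer of naive CD4+CD25-CD44-CD62L+ T cells, a model in which the transferred cells cause colitis. Donors were C57BL/6 mice with floxed Prkaa1, which encodes AMPKα1, a catalytic subunit of the energy sensor AMPK. WT donors were PRKAA1fl/fl without Cre, and KO donors were CD4-Cre PRKAA1fl/fl littermates, in which Cre acts from the CD4+CD8+ thymocyte stage, so that both CD4+ and CD8+ T cells of the donor carry the deletion. The study used mice at 6 to 8 weeks of age. The recipients lack T and B cells of their own and keep NK cells and myeloid cells. There were 4 samples each of WT spleen, KO spleen and KO mLN, and 3 of WT mLN, where replicate 3 failed the study's quality control.

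CD4+ T cells are known mainly as helper cells, but a share of them can acquire the killing machinery of CD8+ T cells and NK cells. That machinery has 2 arms. In one, granules release perforin, which opens the target membrane, and granzymes, proteases that enter through it. In the other, Fas ligand on the killer cell engages the Fas receptor on the target. Lectin-like receptors encoded in the natural killer gene complex tune when such cells fire.

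**Figure D1:**
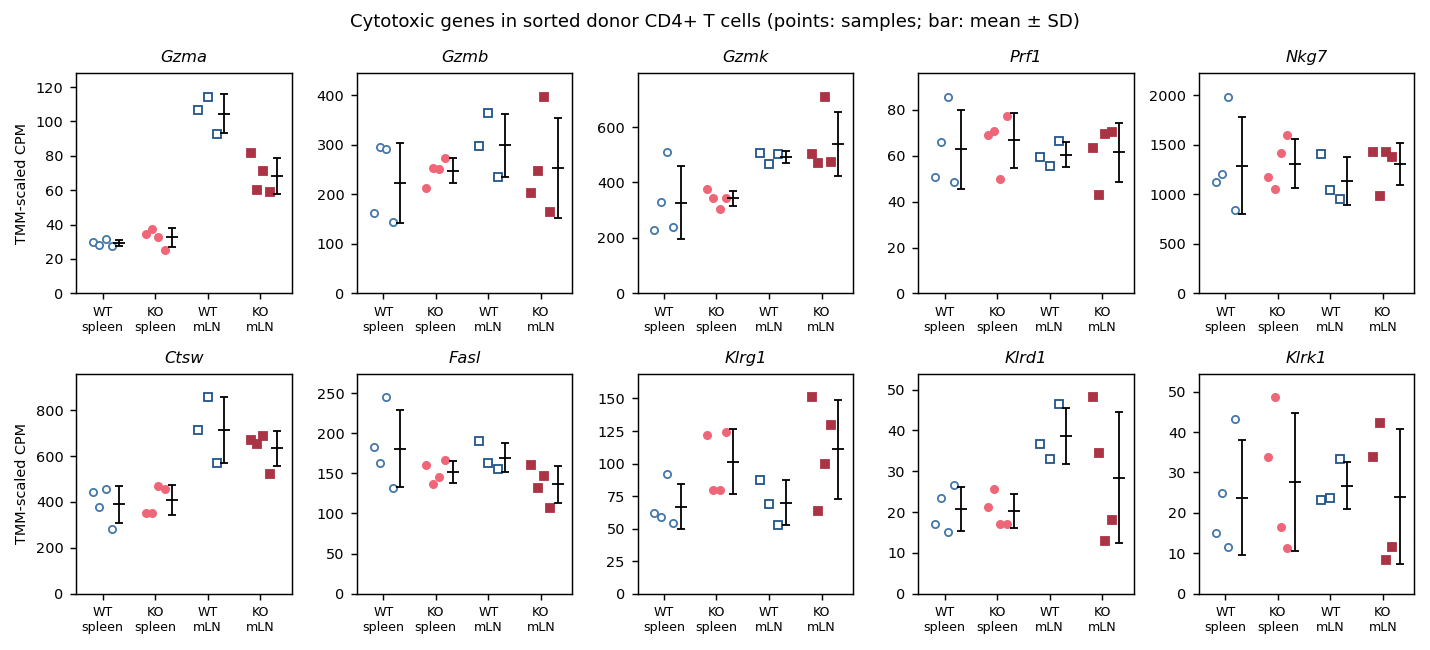
TMM-scaled counts per 1000000 reads (CPM, y axis, from 0) of the 10 genes in each sample (points) of the 4 groups (x axis), with the mean ± SD beside them. Gzma lies between 25.1 and 37.6 CPM in all 8 spleen samples and between 59.1 and 114 CPM in all 7 mLN samples, while Prf1, Nkg7 and Klrk1 overlap between all groups.

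Before the comparisons, the libraries were checked. Each library held 9363940 to 11283439 reads on genes. The targeted gene, Prkaa1, measured 50.4 ± 3.24 CPM (mean ± SD, n = 4) in WT spleen against 20.1 ± 1.16 in KO spleen (n = 4), and 54.3 ± 5.57 in WT mLN (n = 3) against 28.0 ± 5.34 in KO mLN (n = 4), with no overlap in either organ. The summed level of 7 CD4 T cell markers lay between 5231 and 7916 CPM in every library. The summed level of 10 NK cell markers was 19.7 to 81.1 CPM. Of these, Ncr1 lay between 0.48 and 8.38 CPM and Klra8, Klra4 and Klra9 between 0 and 0.70 CPM. Klrb1c lay between 1.27 and 11.9 CPM, Klre1 between 0.72 and 9.60 CPM and Klri2 between 0.31 and 4.31 CPM. Fcgr3 lay between 3.95 and 15.7 CPM, Tyrobp between 3.05 and 20.6 CPM and Fcer1g between 1.93 and 33.2 CPM. Cd8a was at 0.10 to 1.63 CPM in spleen, 0.31 to 8.47 CPM in WT mLN and 16.5 to 23.2 CPM in KO mLN. Markers of red blood cells stood apart in WT spleen replicates 3 and 4 and WT mLN replicate 4, at 1451, 658 and 627 CPM against 13.5 to 89.7 CPM in the other 12 libraries. In these bulk samples, fewer cells that express a gene and less RNA of it per cell cannot be told apart.

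Gzma and Gzmk are neighbors on chromosome 13 of GRCm38, both on the minus strand, at 113093825-113100981 and 113171608-113225908, with 70626 bases between them. Gzmb lies on chromosome 14 at 56258838-56262260, also on the minus strand. In KO cells Gzma and Gzmk both stood higher in mLN than in spleen while Gzmb did not. In WT cells only Gzma of these was called in the main fit, and all of them were called with the replicate number as a block, as given below. The 250 bases before the start of each gene are shown, 5′ to 3′ on the minus strand, from RefSeq on GRCm38.p6. The starts are those of RefSeq, which for Gzmk lies inside the GENCODE span given above, whose far end belongs to 1 longer transcript, and for Gzmb lies just beyond the end of that span. Promoter sequences were matched for 7 of the 10 genes. Capitals mark matches on either strand to 3 short motifs that the factor families of killer lymphocytes recognize: AGGTGT for T-box factors such as T-bet and Eomes, TGTGGT for RUNX factors, and TGANTCA for AP-1. No marked matches overlap each other.
Gzma, chr13:113100982-113101231: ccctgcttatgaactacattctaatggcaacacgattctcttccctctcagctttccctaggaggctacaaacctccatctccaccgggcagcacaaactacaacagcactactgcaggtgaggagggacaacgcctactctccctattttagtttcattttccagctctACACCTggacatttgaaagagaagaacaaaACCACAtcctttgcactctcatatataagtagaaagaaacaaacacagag
Gzmk, chr13:113180966-113181215: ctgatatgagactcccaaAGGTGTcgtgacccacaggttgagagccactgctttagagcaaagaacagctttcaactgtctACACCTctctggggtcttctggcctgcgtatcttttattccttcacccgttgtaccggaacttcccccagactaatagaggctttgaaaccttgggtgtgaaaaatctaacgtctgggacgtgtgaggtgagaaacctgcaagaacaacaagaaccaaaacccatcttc
Gzmb, chr14:56262335-56262584: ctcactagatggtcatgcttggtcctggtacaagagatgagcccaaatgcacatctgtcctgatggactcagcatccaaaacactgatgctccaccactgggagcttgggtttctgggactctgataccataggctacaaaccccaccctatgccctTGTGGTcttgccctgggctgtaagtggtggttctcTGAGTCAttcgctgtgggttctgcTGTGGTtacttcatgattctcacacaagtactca
The Gzma window holds 1 T-box match and 1 RUNX match, with the RUNX letters 50 to 45 bases before the start. The Gzmk window holds 2 T-box matches and none of the RUNX letters. The Gzmb window holds 2 RUNX matches and 1 AP-1 match, the latter as TGAGTCA. Over the 7 matched genes, the T-box letters are in 4 windows (Gzma, Gzmk, Prf1, Nkg7) and the RUNX letters in 5 (Gzma, Gzmb, Prf1, Nkg7, Klrk1), and the Fasl window has none of the 3. Of all 32851 RefSeq windows of this length, 11.8% hold the T-box letters, 14.0% the RUNX letters and 6.75% the AP-1 letters. A match of letters is a description of the window, not of binding.

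The 10 genes sat at very different levels. Per kilobase of exon, Nkg7, a membrane protein of cytotoxic granules, was highest at a mean of 1389 CPM per kilobase over the 15 samples and lay above the next gene in 15 of 15. Gzmk followed at 303 CPM per kilobase and Ctsw, a cysteine protease of killer cells, at 278, and these did not separate, since Gzmk was the higher in 10 of 15 samples. Gzmb, the granzyme that cleaves after aspartate and activates caspases, was at 176 and stood above Fasl, at 82.1, in 15 of 15 samples. Klrg1 (62.6), an inhibitory receptor that binds cadherins, and Gzma (55.2), a tryptase, traded places between samples, with Klrg1 the higher in 10 of 15. Prf1, which encodes perforin, was at 24.4 CPM per kilobase and Klrd1, which encodes CD94, at 20.5, and Prf1 was the higher in 9 of 15. Klrk1, which encodes the activating receptor NKG2D, was lowest at 3.54 and below Klrd1 in 15 of 15 samples. That place rests on the division by length, since Klrk1 has 7183 exonic bases and Klrd1 1281. Before it the genes overlapped, with Klrk1 at 8.33 to 48.6 CPM and Klrd1 at 12.99 to 48.2 CPM. Raw counts behind these values ran from 84 for Klrk1 to 20742 for Nkg7 per library. All of the 10 genes passed the filter on low counts in every comparison.

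**Figure D2:**
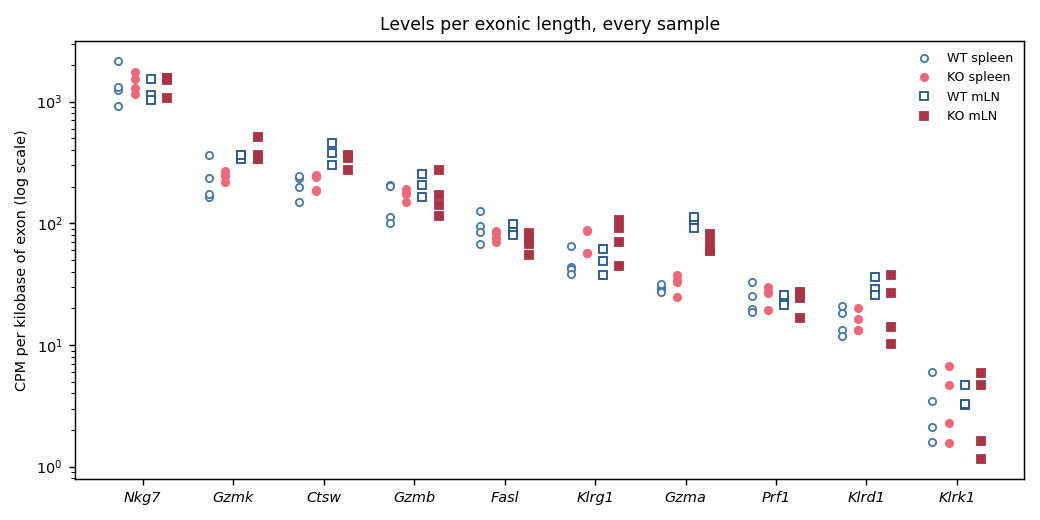
Level of each gene in CPM per kilobase of exon (y axis, log scale) in every sample, ordered by the mean over the 15 samples and colored by group. Nkg7 (mean 1389) and Klrk1 (mean 3.54, with the longest exonic length of the 10) stand clear of their neighbors on this scale. In WT, Gzma changes place most between spleen (mean 29.1) and mLN (mean 104). In KO its means (32.4 and 67.6) stay below those of Fasl and Klrg1 in both organs.

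Whether loss of AMPKα1 changed these genes was asked first within each organ. In spleen, none of the 10 genes passed the test of KO against WT (edgeR quasi-likelihood test, Benjamini-Hochberg adjusted over 14254 genes), where 1.3% of all tested genes did. The 10 log2 fold changes ran from -0.25 to 0.60 with a median of 0.07, against -0.0041 over all genes. The groups overlapped for all 10 genes, where 12.0% of all genes had groups that did not. In mLN none passed either, where 0.641% of all genes did, and the log2 fold changes ran from -0.62 to 0.67 with a median of -0.16.

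The granule genes of the spleen had small log2 fold changes between genotypes, with wide intervals. Nkg7 read 1130, 1203, 1986 and 842 CPM in WT spleen and 1179, 1051, 1414 and 1604 CPM in KO spleen. The WT values enclosed the KO values, and the log2 fold change was 0.02 with a 95% interval of -0.49 to 0.53. Prf1 read 50.8, 65.8, 85.7 and 48.7 CPM in WT spleen and 68.9, 70.9, 49.7 and 77.4 CPM in KO spleen, with a log2 fold change of 0.08 (interval -0.33 to 0.50). For perforin, too, the WT values enclosed the KO values. Gzmb measured 224 ± 80.7 CPM in WT spleen and 248 ± 25.2 in KO spleen (SD, n = 4 each), with a log2 fold change of 0.15 (interval -0.34 to 0.63). Gzmk had 0.06 (interval -0.43 to 0.55) and Ctsw 0.06 (-0.28 to 0.41). The receptors Klrd1 and Klrk1 had -0.03 (-0.47 to 0.41) and 0.22 (-0.86 to 1.30). All of these intervals leave room for changes in either direction, so a missed threshold does not show equal levels.

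Gzma was the member whose genotypes separated in mLN without passing the test. It read 107, 114 and 92.5 CPM in WT mLN and 81.4, 60.4, 71.3 and 59.1 CPM in KO mLN. The highest KO value was under the lowest WT value, which was so for 7.37% of all tested genes in mLN. The log2 fold change was -0.62 ± 0.13 (SE), with an adjusted p of 0.069 by edgeR. The call depended on the fit: the adjusted p was 0.0021 with DESeq2, 0.021 when all 15 samples shared one edgeR fit, and 0.045 in edgeR without KO mLN replicate 1, where the log2 fold change was -0.72. The other 6 edgeR fits that left out 1 library gave no call for Gzma, with adjusted p up to 0.24. With RLE in place of TMM scaling, or with the replicate number as a block, Gzma was not called either (adjusted p up to 0.19, edgeR). Same-numbered mLN samples of the 2 genotypes did not deviate together (median r = 0.0008), and the blocked fit called 1 gene of 14359. In spleen Gzma read 29.7, 28.2, 31.8 and 27.3 CPM in WT and 34.6, 37.6, 32.9 and 25.1 CPM in KO. These overlapped, with a log2 fold change of 0.15 ± 0.12. The difference between the organs in the genotype effect was -0.77 ± 0.19 for Gzma, with an unadjusted p of 0.00071 and an adjusted p of 0.82 in the edgeR interaction test. No gene of 15438 passed that test (0.0%), with 652 at an unadjusted p under 0.05 and 4 passing with DESeq2.

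Klrg1 had a higher mean in KO in both organs without passing the edgeR test. In WT spleen it read 62.2, 59.0, 92.1 and 54.5 CPM and in KO spleen 122, 79.9, 80 and 124 CPM. WT replicate 3 was the only WT spleen sample inside the KO range. The log2 fold change was 0.60 ± 0.20, with an adjusted p of 0.13 by edgeR and 0.045 by DESeq2, and without WT spleen replicate 3 it was 0.79 with an adjusted p of 0.047 by edgeR. The other 7 edgeR fits that left out 1 spleen library gave no call, with adjusted p up to 0.31. In mLN it read 87.3, 69.3 and 53.1 CPM in WT and 151, 63.2, 100.03 and 129.9 CPM in KO. KO mLN replicate 2 lay among the WT samples, and the log2 fold change was 0.67 ± 0.26 (adjusted p = 0.25, edgeR).

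Fasl, the ligand of the second killing arm, had a lower mean in KO in both organs without passing. It measured 181 ± 47.8 CPM in WT spleen and 152 ± 13.5 in KO spleen, and 170 ± 18.2 CPM in WT mLN (n = 3) and 136 ± 22.9 in KO mLN. The log2 fold changes were -0.25 (interval -0.61 to 0.10) and -0.32 (interval -0.61 to -0.02, adjusted p = 0.29 by edgeR). In mLN the groups met through 1 sample, KO mLN replicate 1 at 160 CPM, above the lowest WT value of 156.

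The other members differed less or spread more between genotypes in mLN. Nkg7 had a log2 fold change of 0.20 (interval -0.13 to 0.54) and Prf1 one of 0.03 (-0.33 to 0.39). Of the granule proteases, Gzmb had -0.24 (-0.81 to 0.32), Gzmk 0.13 (-0.17 to 0.43) and Ctsw -0.17 (-0.48 to 0.13). The receptors Klrd1 and Klrk1 had -0.44 (-1.24 to 0.35) and -0.15 (-1.17 to 0.88), the widest intervals of the 10. Each of these intervals includes 0.

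**Figure D3:**
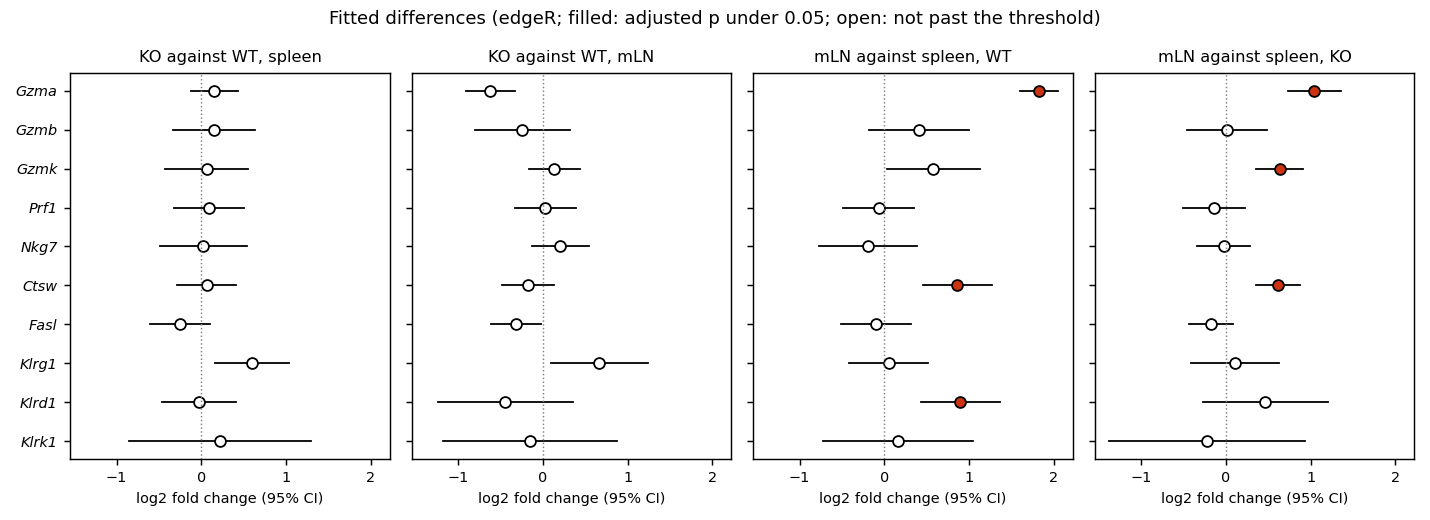
Fitted log2 fold change (x axis) of each gene with its 95% interval in the 4 comparisons, filled where the adjusted p was under 0.05. No point is filled for KO against WT, and Gzma (1.83 and 1.04) and Ctsw (0.86 and 0.62) are filled for mLN against spleen in both genotypes.

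More of the 10 genes passed the test between organs than between genotypes, while Klrg1 and Fasl had larger fold changes between genotypes. In WT cells 3 of the 10 genes (Gzma, Ctsw and Klrd1) were higher in mLN than in spleen and none was lower, where 9.7% of all 14515 tested genes were higher and 10.8% lower. In KO cells 3 of the 10 (Gzma, Gzmk and Ctsw) were higher and none lower, where 11.4% of 14240 were higher and 13.9% lower. The median log2 fold change of the 10 was 0.29 in WT and 0.06 in KO, against 0.00 and 0.01 over all genes. The WT and the KO organ comparison use different samples, but each shares its groups with the genotype comparisons above.

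Gzma rose most. From the spleen values given above to those of mLN it was 3.55-fold higher in WT (log2 1.83 ± 0.10, adjusted p = 5.9e-05) and 2.06-fold higher in KO (log2 1.04 ± 0.14, adjusted p = 0.00038) by edgeR. The organs did not overlap in either genotype, and the call held in every fit tried. Non-overlap in this direction was found for 16.1% of all genes in WT and 14.2% in KO.

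Ctsw read 444, 376, 458 and 282 CPM in WT spleen and 712, 857 and 572 CPM in WT mLN. In KO it read 353, 351, 472 and 456 CPM in spleen and 670, 655, 689 and 520 CPM in mLN. Every mLN sample stood above every spleen sample of its genotype. The log2 fold changes were 0.86 ± 0.18 (adjusted p = 0.011) and 0.62 ± 0.12 (adjusted p = 0.0031) by edgeR. Ctsw, on chromosome 19, shares 9 exonic bases with Fibp on the other strand.

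Gzmk read 376, 343, 306 and 344 CPM in KO spleen and 503, 471, 709 and 473 CPM in KO mLN, with a log2 fold change of 0.64 ± 0.13 (adjusted p = 0.0040, edgeR). The organs did not overlap in KO. In WT it read 229, 330, 511 and 240 CPM in spleen and 508.0, 466.3 and 501.3 CPM in mLN. Spleen replicate 3 alone reached the mLN level. The log2 fold change of 0.58 ± 0.24 had an adjusted p of 0.13, and without that replicate it was 0.88 with an adjusted p of 0.0047 (edgeR). The other 6 edgeR fits that left out 1 WT library gave no call, with adjusted p up to 0.26.

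Klrd1 read 17.2, 23.6, 15.2 and 26.7 CPM in WT spleen and 36.7, 32.9 and 46.4 CPM in WT mLN. The organs did not overlap, and the log2 fold change was 0.89 ± 0.21 (adjusted p = 0.016, edgeR). Without WT mLN replicate 4 the change was 0.74 with an adjusted p of 0.061, and without the 3 libraries rich in red cell markers it was 0.75 with an adjusted p of 0.055. The call was also lost when all 15 samples shared one fit (0.90, adjusted p = 0.061, edgeR). In KO mLN the 4 samples split, at 48.2 and 34.5 CPM in replicates 1 and 2 and 12.99 and 18.05 CPM in replicates 3 and 4, around the KO spleen range of 17.1 to 25.7 CPM. The KO log2 fold change was 0.47 (interval -0.27 to 1.21).

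In WT cells, samples with the same replicate number deviated together between spleen and mLN. The numbers were used as a block on this ground alone, since the labels do not pair the samples. With the replicate number as a block, 5 of the 10 genes were called higher in WT mLN by edgeR: Gzma (1.87), Ctsw (0.95), Gzmk (0.89, adjusted p = 0.00045), Klrd1 (0.78, adjusted p = 0.0027) and Gzmb (0.61, adjusted p = 0.0018). In that blocked fit 14.6% of all genes were called higher. WT mLN has no replicate 3, so WT spleen replicate 3 stands alone in its block and adds nothing to the organ difference. The blocked Gzmk value is thus close to the 0.88 found without that sample, and the 2 fits are not independent of each other. Gzmb read 163, 295, 292 and 145 CPM in WT spleen replicates 1 to 4 and 297, 364 and 236 CPM in WT mLN replicates 1, 2 and 4. Each mLN value was above the spleen value of its own number, while the groups overlapped. The interaction values of the other genes called between organs were -0.24 for Ctsw, 0.07 for Gzmk and -0.42 for Klrd1, each with an adjusted p of 0.9998 (edgeR), so a difference in the organ effect between genotypes was not shown for any of them.

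Other markers moved between the organs beside these genes. Tcrg-C1 and Tcrg-C2, constant regions of the T cell receptor gamma locus, were higher in mLN with log2 fold changes of 1.46 and 1.10 in WT and 1.92 and 1.52 in KO. Trdc, the delta constant region, was not called, at -0.36 in WT (adjusted p = 0.77) and 0.51 in KO (adjusted p = 0.54, edgeR). The summed level of 4 gamma-delta T cell markers was 48.2 to 94.8 CPM in spleen and 97.8 to 191 CPM in mLN, with Sox13 between 0 and 0.31 CPM in every library. Cd8a was higher in KO mLN than KO spleen (log2 4.43, adjusted p = 3.2e-05, edgeR), while Cd8b1, which encodes the other chain of CD8, was not called (1.20, adjusted p = 0.067). Of 7 markers of monocytes, macrophages and dendritic cells, Siglech (2.71) and Itgax (1.14) were higher and Csf1r (-1.49), Adgre1 (-1.86) and Lyz2 (-1.24) lower in KO mLN, and none was called in WT. The summed level of 4 neutrophil markers was 117 to 444 CPM in spleen and 16.4 to 61.5 CPM in mLN, with S100a8, S100a9 and Mpo called lower in both genotypes. Their part in the higher Gzma, Gzmk and Ctsw was not tested. The summed NK markers were no higher in mLN (19.7 to 50.9 CPM) than in spleen (34.7 to 81.1 CPM). In WT spleen Fcer1g, Fcgr3 and Tyrobp had the highest medians in this sum. The share of other cells in the sums was not tested, so the sums do not give NK cell content. Of the NK markers Fcgr3 (-1.03) and Fcer1g (-1.18) were called lower in KO mLN, where all 7 tested had negative log2 fold changes. In WT none of the 7 NK markers tested was called, with Klrb1c (0.47) and Klre1 (0.06) positive and 5 negative. The part of NK cells in the higher mLN levels was not tested either.

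Prf1, Nkg7, Fasl, Klrg1 and Klrk1 passed in neither organ comparison. Prf1 lay between 43.0 and 85.7 CPM in all 15 samples. Its log2 fold changes between organs were -0.07 (interval -0.48 to 0.35) in WT and -0.14 (interval -0.50 to 0.23) in KO.

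Within groups the 10 genes differed in spread and in direction. The pooled within-group SD was 0.19 on the log2 scale for Gzma, the tightest, and 0.52 for Klrd1 and 0.91 for Klrk1, the widest. Klrk1 read 15.1, 24.9, 11.5 and 43.2 CPM in WT spleen and 33.9, 48.6, 16.5 and 11.2 CPM in KO spleen. In mLN it read 23.1, 23.6 and 33.4 CPM in WT and 33.9, 42.2, 8.33 and 11.6 CPM in KO. Within the KO spleen and WT mLN groups the order of the samples by Klrk1 was the exact reverse of their order by Nkg7. WT spleen replicate 3 was the highest of its group for 7 genes (Gzma, Gzmk, Prf1, Nkg7, Ctsw, Fasl and Klrg1) and the lowest for Klrd1 and Klrk1, and replicate 4 was the lowest for 7 and the highest for Klrd1 and Klrk1. Both replicates also carried the most red cell markers of the spleen samples. The summed NK markers were 40.1, 43.7, 34.7 and 63.7 CPM in WT spleen, the order of Klrk1, and 50.9, 42.5, 33.8 and 19.7 CPM in KO mLN, where the same 2 samples were the higher. In KO spleen they were 56.8, 62.6, 81.1 and 39.3 CPM, not in the order of Klrk1, while Ncr1 was (5.15, 8.38, 2.27 and 1.90 CPM). In WT mLN the sums of 43.4, 36.6 and 25.2 CPM ran in the reverse order of Klrk1. The summed markers of monocytes, macrophages and dendritic cells were 208, 82.3 and 42.7 CPM there, the order of the NK sums. In the other groups these orders differed. KO spleen replicate 3, highest of its group in NK sum, was also highest in these markers (326 CPM) and neutrophil markers (349 CPM). How much of the NK sums came from other cells was not tested. The part of NK cells in the spread of Klrk1 and Klrd1 was not tested.

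**Figure D4:**
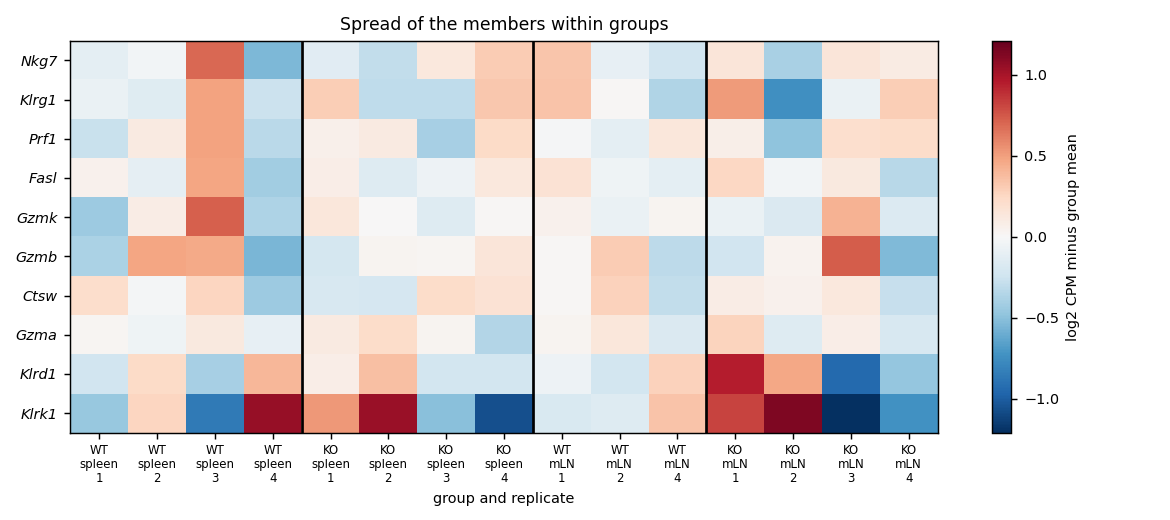
Deviation of each sample's log2 CPM from its group mean (color) for the 10 genes (rows) in the 15 samples (columns, by group and replicate). Klrk1 and Klrd1 are low where Nkg7 is high in WT spleen replicate 3 and the reverse in replicate 4, and KO mLN replicates 1 and 2 differ from 3 and 4 for both receptors.

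The genes whose log2 CPM followed each member most closely over the 15 samples, out of 14149 genes, are given with Pearson's r as a description over 4 groups and 2 organs. Klrk1 and Klrd1 shared Klrc1, which encodes NKG2A, the partner of CD94 in an inhibitory receptor (r = 0.88 and 0.86). Klrc1 read 16.9, 25.8, 11.9 and 39.7 CPM in WT spleen and 36.6, 39.2, 9.91 and 10.5 CPM in KO mLN, the same order of replicates as Klrk1 in WT spleen and the same split in KO mLN. It read 31.5, 26.7, 20.9 and 18.2 CPM in KO spleen and 33.5, 26.6 and 54.9 CPM in WT mLN, where its order was not that of Klrk1. Nkg7 was followed by Cd200r4, Hopx and Irf2 (r = 0.91 to 0.92) and Klrg1 by Sp100 (0.91), Zfp983 and Pdcd5. Gzmk was followed by Sp110 (0.92), Zfp429 and Ifit1bl1, and Gzmb by Cd274 (0.83), which encodes the checkpoint ligand PD-L1, E4f1 and Taco1os. Gzma was followed by Uqcrfs1 (0.95), a subunit of respiratory complex III, Ypel3 and Rpl37rt, and Ctsw by Clta (0.95), Gm17638 and Slc3a2. Prf1 was followed by Aagab (0.87), Mto1 and Asap2, and Fasl by Lilrb4a (0.88), Kptn and Fes. Among the members, Gzma and Ctsw had the highest r (0.86), then Klrd1 and Klrk1 (0.75), and the lowest was that of Nkg7 and Klrk1 (-0.73).

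The machinery around these genes was read from 62 companion genes in 9 roles. Between genotypes, 1 of 51 tested in spleen was higher in KO and none lower, where 1.3% of all genes were called in either direction. In mLN 1 of 52 was higher and 1 lower, where 0.641% of all genes were called. The gene higher in both was Eomes, a T-box factor of cytotoxic and memory T cells. It read 42.0, 43.2, 68.2 and 36.2 CPM in WT spleen against 78.3, 88.8, 90.5 and 103.4 CPM in KO spleen. In mLN it read 46.2, 44.9 and 30.7 CPM in WT against 68.4, 74.5, 118.3 and 94.3 CPM in KO. The genotypes did not overlap in either organ, as for 5.9% of all genes in this direction in spleen and 6.62% in mLN. The log2 fold changes were 0.93 ± 0.17 (adjusted p = 0.044) and 1.13 ± 0.21 (adjusted p = 0.042) by edgeR, and the call was lost in 7 of 8 and 6 of 7 fits that left out 1 library, with adjusted p up to 0.12 and 0.15. Of these fits, the calls remained only without WT spleen replicate 3 and without KO mLN replicate 1. With the replicate number as a block Eomes was not called (adjusted p = 0.085 in spleen and 0.19 in mLN, edgeR). Over all genes those blocked fits called 17 and 1. The gene lower in KO mLN was Id2, an inhibitor of E proteins, at 2233 ± 231 CPM in WT and 1541 ± 158 in KO (log2 -0.53 ± 0.09, adjusted p = 0.039, edgeR). Its call was also lost in 6 of 7 fits that left out 1 library, and with the block (adjusted p = 0.16, edgeR).

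Between organs, 3 of 52 companions were higher in mLN and 5 lower in WT, where 9.7% of all genes were higher and 10.8% lower. In KO 4 of 51 were higher and 10 lower, where 11.4% of all genes were higher and 13.9% lower. Granule genes went both ways. Srgn, whose product serglycin holds granzymes in the granule, read 479 to 550 CPM in WT spleen and 969 to 1063 CPM in WT mLN, with log2 fold changes of 0.96 in WT (adjusted p = 0.00022) and 0.74 in KO (adjusted p = 0.0014) by edgeR. Unc13d, which primes granules for release, read 207 to 264 CPM in WT spleen and 104 to 128 CPM in WT mLN, with log2 fold changes of -1.08 in WT (adjusted p = 0.00036) and -1.12 in KO (adjusted p = 8.7e-07) by edgeR. Lyst, a regulator of lysosome size, was lower in mLN by -1.22 and -0.97, and Stx11, a fusion protein for granules, by -0.35 in KO. Srgn and Unc13d did not overlap between organs in either genotype, and of all genes 15.8% in WT and 14.5% in KO were lower in mLN without overlap.

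Of the factors that set the killer program, Zbtb7b and Zfp683 differed most between organs in both genotypes. Zbtb7b encodes ThPOK, the factor that keeps CD4+ T cells helper-like and represses cytotoxic genes. It measured 95.05 ± 17.2 CPM in WT spleen and 32.5 ± 4.34 in WT mLN, and 113 ± 7.12 in KO spleen and 28.7 ± 3.37 in KO mLN. The log2 fold changes were -1.56 (adjusted p = 0.00036) and -1.998 (adjusted p = 5.9e-07) by edgeR. Zfp683, which encodes Hobit, was lower by -2.27 in WT and -1.93 in KO from low levels of 6.87 to 15.1 CPM in spleen. Tbx21, which encodes T-bet, was lower in KO mLN (log2 -0.82, adjusted p = 0.00049, edgeR) and had -0.75 in WT (adjusted p = 0.15), and Id2 was lower in KO mLN by -0.41. Of the inhibitors, Serpinb6b was higher in mLN by 1.17 in WT and 1.09 in KO, and Tnfsf10, the death ligand TRAIL, was lower by -0.87 (adjusted p = 0.041, lost in 6 of 7 fits without 1 library) and -0.62 (adjusted p = 0.0017). Hcst, the adaptor DAP10 that carries the signal of NKG2D, was higher in WT mLN by 0.43 (adjusted p = 0.0091, edgeR). The other 4 companions called in KO were Tcf7, Ap3b1, Ccl3 and H60b.

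**Figure D5:**
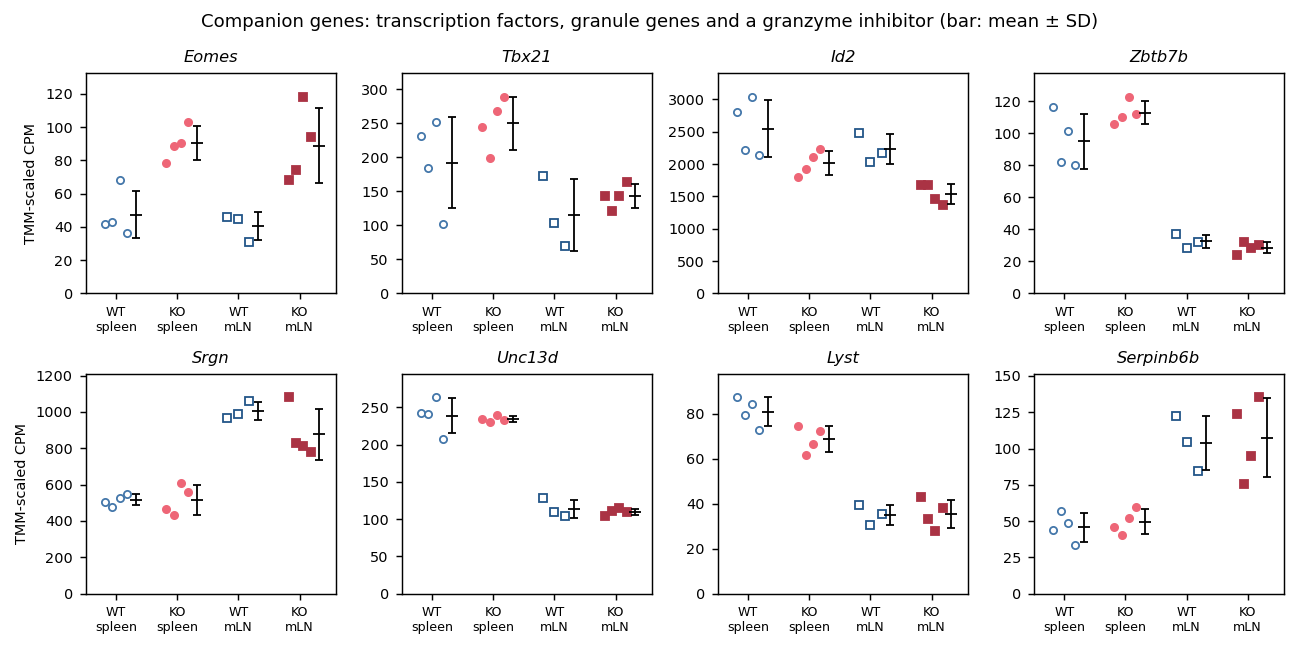
TMM-scaled CPM (y axis, from 0) of 8 companion genes in each sample (points) of the 4 groups (x axis), with the mean ± SD beside them. Eomes separates KO from WT in both organs, Zbtb7b, Unc13d and Lyst are lower in all 7 mLN samples than in all 8 spleen samples, and Srgn is higher in all 7.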

How the data were processed

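RNA of sorted donor CD4+ T cells from 15 samples was sequenced by the study with the NEBNext Single Cell/Low Input kit as single-end reads. The authors aligned reads with STAR 2.6.1a to GRCm38 with GENCODE annotation and deposited raw counts of reads per gene, without normalization. Whether counting used strand is not given in the sources used here, so overlapping and antisense genes are uncertain, and reads that map to several places are not counted, which affects near-identical copies. A median of 60.9% of uniquely aligned reads lay on no gene (58.4% to 63.4%); these stayed out of library sizes.

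Of 55421 genes, 55240 were given symbols, positions and exonic lengths by GENCODE M21, which uses that build. Counts were tested with edgeR 4.0.16 in R 4.3.3 (filterByExpr, TMM, quasi-likelihood test), fitted on the 2 groups compared over the whole table, with Benjamini-Hochberg adjustment over all genes tested and calls at an adjusted p under 0.05. The interaction was fitted over 15 samples. Values printed are counts per 1000000 reads after TMM scaling (CPM). On simulated counts with 200 changed genes (median absolute log2 change of about 2), edgeR recovered 100% in each 2-group comparison and 99.5% in the interaction. Of its calls, 2.44% to 4.76% in the 2-group comparisons and 7.01% in the interaction fell on unchanged genes. The planted changes were in well-counted genes, and every gene had the same spread. The recovery therefore does not show how often smaller changes, or changes in genes of wider spread, would be found. Precision of a count rests on its size; no molecular identifiers were used, so counting error is a lower limit.

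Groups and replicate numbers follow the labels. The study describes 1 experiment with 4 mice in a group, and the labels tie no number to a mouse. Same-numbered WT spleen and mLN samples deviated together over genes (r = 0.24 to 0.29, 3 of 3 pairs over 0.1), so the blocked fit is given for WT. Differently numbered WT spleen and mLN samples had r of at most 0.03. Among samples of different genotype, r reached 0.25 for WT spleen replicate 4 and KO spleen replicate 2. The pairing is thus read from these same data and is uncertain. Same-numbered KO organ samples did so less clearly, with r of 0.03 to 0.26, a median of 0.11 and 2 of 4 over 0.1. For same-numbered samples of the 2 genotypes the median r was -0.04 in spleen and 0.0008 in mLN. The main organ and interaction tests took no account of a pairing. Alternatives were DESeq2 1.42.0, RLE scaling, no filter, 1 fit of all samples, the block, leaving out each library, and, chosen after seeing the data, leaving out the 3 libraries richest in red cell markers.

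The members, the companion and marker lists and the motifs were chosen with earlier results of these data known. The text names all members, Prkaa1, up to 10 called companions per comparison with the smallest p, and the 3 genes most like each member. Python 3.11.15, numpy 2.4.6, pandas 2.3.3 and matplotlib 3.10.9 were used.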

Additional observations from a re-analysis of the deposited data

Results flagged for a closer look

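Of 30 combinations of a gene and a group of 4 samples, 2 held a sample set apart from the other 3 by more than Dixon's 95% limit, a rule that flags about 1 in 20 groups by chance. Gzmk in KO mLN replicate 3 was at 709 CPM, with the other 3 samples at 471 to 503 CPM. Nkg7 in KO mLN replicate 2 was at 984 CPM, with the other 3 at 1381 to 1433 CPM. The groups of 3 samples (WT mLN) were not checked in this way.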

How the results depend on the processing

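Counts of members called changed under some alternatives. For KO against WT in spleen, 0 became 1 (Klrg1) with DESeq2 and 1 without the filter on low counts, and ranged from 0 to 1 over fits that left out 1 library. In mLN, 0 became 1 (Gzma) with DESeq2, 1 in the fit of all 15 samples and 2 without the filter, and ranged from 0 to 1 with 1 library left out. For mLN against spleen in WT, 3 became 5 without the filter, 5 with the replicate block, 2 in the fit of all 15 samples (without Klrd1) and 1 with an added limit of 1 on the absolute log2 fold change, and ranged from 2 to 4 with 1 library left out. In KO, 3 became 1 with that limit and 4 (with Klrd1) without the filter, and stayed at 3 in every fit with 1 library left out. For the interaction, 0 became 1 (Gzma) without the filter and stayed at 0 with 1 library left out. With the replicate block no member was called for KO against WT in either organ, and 3 were called in KO between organs, so the block changed no other call. Without the 3 libraries rich in red cell markers 0 were called between genotypes in either organ and 3 between organs in WT, with Gzmk passing (adjusted p = 0.037) and Klrd1 not (adjusted p = 0.055) beside Gzma and Ctsw. None of those libraries is KO, so the organ comparison in KO did not change.

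Over all genes, 185 were called for KO against WT in spleen, against 823 with DESeq2, 1422 without the filter, 85 in the fit of all samples, 17 with the block and 12 to 324 with 1 library left out. In mLN 92 were called, against 590, 913, 500, 1 and 4 to 117. For the interaction 0 were called, against 4 with DESeq2, 112 without the filter and 3 with the block.

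Signs turned only for members that were not called. With the replicate block the log2 fold change for KO against WT in mLN was -0.030 for Gzmk, -0.063 for Prf1 and 7.1e-05 for Klrk1. WT mLN has no replicate 3, so this block sets KO mLN replicate 3 aside. Its Gzmk value is also the lowest found with 1 library left out. In the WT organ comparison and the interaction, the block sets WT spleen replicate 3 aside. For mLN against spleen it was 0.13 for Prf1, 0.089 for Nkg7 and 0.089 for Fasl in WT and -0.061 for Gzmb in KO, and the interaction was -0.27 for Gzmk. Without the filter Gzmb between organs in KO was -0.0051. Without the 3 libraries rich in red cell markers it was -0.0088 for Ctsw (KO against WT, spleen), 0.042 for Klrk1 (KO against WT, mLN), 0.053 for Nkg7 and 0.0074 for Fasl (organs, WT) and -0.14 for Gzmk (interaction).

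With 1 library left out, KO against WT in spleen ran from -0.012 to 0.31 for Gzmb, -0.076 to 0.36 for Gzmk, -0.017 to 0.27 for Prf1, -0.13 to 0.31 for Nkg7, -0.064 to 0.15 for Ctsw, -0.17 to 0.12 for Klrd1 and -0.21 to 0.69 for Klrk1. In mLN it ran from -0.030 to 0.20 for Gzmk, -0.038 to 0.17 for Prf1 and -0.57 to 0.13 for Klrk1. Between organs in WT it ran from -0.17 to 0.13 for Prf1, -0.37 to 0.10 for Nkg7, -0.23 to 0.087 for Fasl, -0.13 to 0.25 for Klrg1 and -0.064 to 0.63 for Klrk1. In KO it ran from -0.29 to 0.18 for Gzmb, -0.26 to 0.0048 for Prf1, -0.12 to 0.093 for Nkg7, -0.066 to 0.31 for Klrg1 and -0.64 to 0.21 for Klrk1, and the interaction of Gzmk from -0.23 to 0.21. Apart from the samples that the block sets aside, the cause of these changes was not tested.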

Other observations

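Of the granzyme genes near Gzmb on chromosome 14, Gzmd, Gzme and Gzmn were at most at 1.22, 0.61 and 0.50 CPM in any library. Gzmf and Gzmg were at 4.17 and 4.07 CPM in WT mLN replicate 4 and at most 0.65 and 0.30 CPM in the other 14 libraries. Near-identical copies in this cluster share reads, so the split between them is uncertain. Of the other granzymes, only Gzmc (1.71 to 5.21 CPM) and Gzmm (2.65 to 14.6 CPM) passed the filter on low counts in all comparisons, and neither passed a test.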
